A study of Mus musculus with 4 samples.

Results

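Transcripts of 10 genes of leukocyte capture by blood vessels were followed in 4 mouse livers sequenced by RNA-seq. The genes are the adhesion molecules Vcam1, Icam1, Icam2 and Madcam1, the selectins Sele and Selp, and Nfkbia, Tnfaip3, Relb and Nfkb2, which NF-kappaB both uses and switches on. They were taken by symbol from a table of 21959 gene IDs, in which each symbol had 1 row. All livers came from wild-type (WT) mice. Each had ACLF, acute-on-chronic liver failure, in which acute injury falls on a chronically diseased liver. The mice of 2 livers were treated with baicalein, a flavone from the root of Scutellaria baicalensis, and those of the other 2 received saline. The labels give no dose, route, time of collection, age or sex, nor the way in which ACLF was induced, and no healthy liver was analysed here. The livers are numbered within each group but not tied to separate animals, so p-values speak only of the spread among these 4 samples, part of which may be technical.

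Total counts per liver ran from 13976440 to 18731616, at which 3 reads correspond to 0.15 to 0.219 CPM (counts scaled by the normalised library size). The counts of the livers of a group differed by more than sampling noise, with a chi-square per degree of freedom of 16.4 for baicalein and 20.1 for saline. The livers also differed in ways the treatment labels do not give. The Y-linked genes Ddx3y, Kdm5d, Eif2s3y and Uty together had 2 and 1 reads in the baicalein livers, against 820 and 836 in the saline livers, so that a difference by treatment and one by sex cannot be told apart in any value below. Transcripts of 7 skeletal muscle genes summed to 0.138 and 1370 CPM in baicalein livers 1 and 2 with baicalein, against 4450 and 0.365 CPM with saline in saline livers 1 and 2. Muscle transcripts were thus abundant in 1 liver of each group.

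Leukocytes leave the blood in steps: selectins on endothelium slow them, and integrins on the leukocyte then bind immunoglobulin-family molecules such as ICAM-1 and VCAM-1. In most vessels TNF and interleukin 1 induce E-selectin, VCAM-1 and ICAM-1 through NF-kappaB, which at the same time induces its own inhibitors IkappaB-alpha (Nfkbia) and A20 (Tnfaip3). The sinusoids of the liver are a special bed. Their endothelium carries little selectin, and capture there rests largely on ICAM-1, VCAM-1 and hyaluronan bound by CD44. VCAM-1 in liver is also carried by Kupffer cells, the resident macrophages, and by stellate cells, the pericytes of the sinusoid.

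Of the 10 genes, Vcam1 and Icam1 rose with baicalein, and the 4 NF-kappaB genes did not pass the test in either direction. Sele and Madcam1 had too few reads to be tested, which left 8. Across all 12657 genes tested, 15.5% were called at an adjusted p below 0.05 (edgeR quasi-likelihood test, Benjamini-Hochberg adjustment), 7.65% higher with baicalein and 7.9% lower. The 2 called genes among 8 are to be read against that background. The median log2 fold change over all tested genes was 0.01.

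Most of these genes are textbook NF-kappaB targets, and promoter stretches are shown to place the recognition motif in genes that passed the test, did not pass it or were not tested. RefSeq promoter windows on GRCm38.p6 matched 7 of the 10 genes by symbol (10 windows, some genes having several starts), all but Vcam1, Icam2 and Relb. In the 250 bases before each start, 2 letter patterns of the NF-kappaB site were searched on both strands. The longer is GGG, any 2 bases and then TTTCC, found in 1.41% of all 32851 windows of that length, and the shorter is GGAAATTCC, found in 0.286%. The matches overlap in Nfkbia. Either was found in 5 of the 7 genes and in 6 of the 10 windows, against 1.61% of all windows. Since the genes were picked as NF-kappaB genes, and the patterns with these windows in view, that share is a description. The 160 bases before the start are printed 5′ to 3′ along the gene, with matches in capitals and with the Tnfaip3 window that held matches. They are chr9:21015780-21015939 (plus strand) for Icam1, chr12:55492648-55492807 (minus strand) for Nfkbia, chr10:19015411-19015570 (minus strand) for Tnfaip3 and chr10:79664399-79664558 (plus strand) for Madcam1.
Icam1: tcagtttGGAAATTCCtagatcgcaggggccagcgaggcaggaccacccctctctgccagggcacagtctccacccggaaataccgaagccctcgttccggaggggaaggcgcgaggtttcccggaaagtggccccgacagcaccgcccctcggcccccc
Nfkbia: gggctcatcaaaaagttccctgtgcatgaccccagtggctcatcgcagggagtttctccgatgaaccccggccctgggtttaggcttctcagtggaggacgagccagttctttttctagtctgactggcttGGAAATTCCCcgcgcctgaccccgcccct
Tnfaip3: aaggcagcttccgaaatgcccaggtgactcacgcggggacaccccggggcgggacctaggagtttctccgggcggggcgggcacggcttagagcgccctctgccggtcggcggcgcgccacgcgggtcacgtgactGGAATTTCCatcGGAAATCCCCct
Madcam1: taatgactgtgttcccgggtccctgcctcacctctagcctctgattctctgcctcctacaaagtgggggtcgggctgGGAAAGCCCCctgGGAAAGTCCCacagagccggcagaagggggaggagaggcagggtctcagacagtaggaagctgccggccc
Icam1, which rose, and Nfkbia, whose groups overlapped, both hold GGAAATTCC, at -153 and -29 from the start. Tnfaip3 holds both patterns, at -24 and -12. Madcam1, with 1 read in 4 livers, holds the longer pattern at -83 and again at -70. Nfkb2 holds it at -11 and, before another start, at -225. The windows of Sele and Selp hold neither pattern, which says only that these letters are not there.

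Vcam1 (ENSMUSG00000027962, chromosome 3), which encodes the ligand of the integrins alpha4 beta1 and alpha9 beta1, had 436 and 592 reads in the baicalein livers, against 195 and 157 in the saline livers. On the CPM scale these were 30.0 and 29.5 with baicalein, against 11.5 and 11.5 with saline. The livers of a group lay close together and the groups far apart, both in the livers with abundant muscle transcripts and in the others. The group means were 29.8 ± 0.315 CPM with baicalein and 11.5 ± 0.00908 CPM with saline (SD, n = 2 each). At 195 and 157 reads the saline SD lies below the counting error, so it does not measure how tightly livers agree. Vcam1 rose 2.60-fold (log2 fold change 1.38, SE 0.12, 95% interval of the fold 2.16 to 3.12, adjusted p = 0.000128 by edgeR). It passed in all 12 alternative fits, with log2 fold changes of 1.35 to 1.39 and an adjusted p of at most 0.00553.

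Icam1 (ENSMUSG00000037405, chromosome 9) encodes the ligand of the leukocyte integrins LFA-1 and Mac-1. It had 18.2 and 15.9 CPM in the baicalein livers, against 11.5 and 11.9 CPM in the saline livers. Both baicalein livers lay above both saline livers, by a smaller margin than for Vcam1. Icam1 rose 1.45-fold (log2 fold change 0.54, SE 0.14, 95% interval of the fold 1.17 to 1.81, adjusted p = 0.0302 by edgeR). The call was lost with DESeq2 (adjusted p = 0.107), with limma-voom (adjusted p = 0.0692) and in edgeR fits without any 1 of the 4 livers (adjusted p of 0.0761 to 0.196), with a log2 fold change of 0.43 to 0.64 in the last.

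Icam2 (ENSMUSG00000001029, chromosome 11), an LFA-1 ligand that endothelium and platelets carry without induction, had 4.74 and 6.44 CPM with baicalein, against 3.17 and 3.06 CPM with saline. The groups did not overlap, baicalein lying higher. This was also so for 29.7% of all tested genes, against 29.5% with baicalein lower (59.2% in either direction), and among the 8 tested members for 4 higher and 1 lower. The log2 fold change of 0.84 (SE 0.28) did not pass (adjusted p = 0.0788 by edgeR), and it ranged from 0.61 without baicalein 2 to 1.03 without baicalein 1. Its 95% interval, which is not adjusted for the number of genes, ran from 1.15-fold to 2.79-fold.

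**Figure D1:**
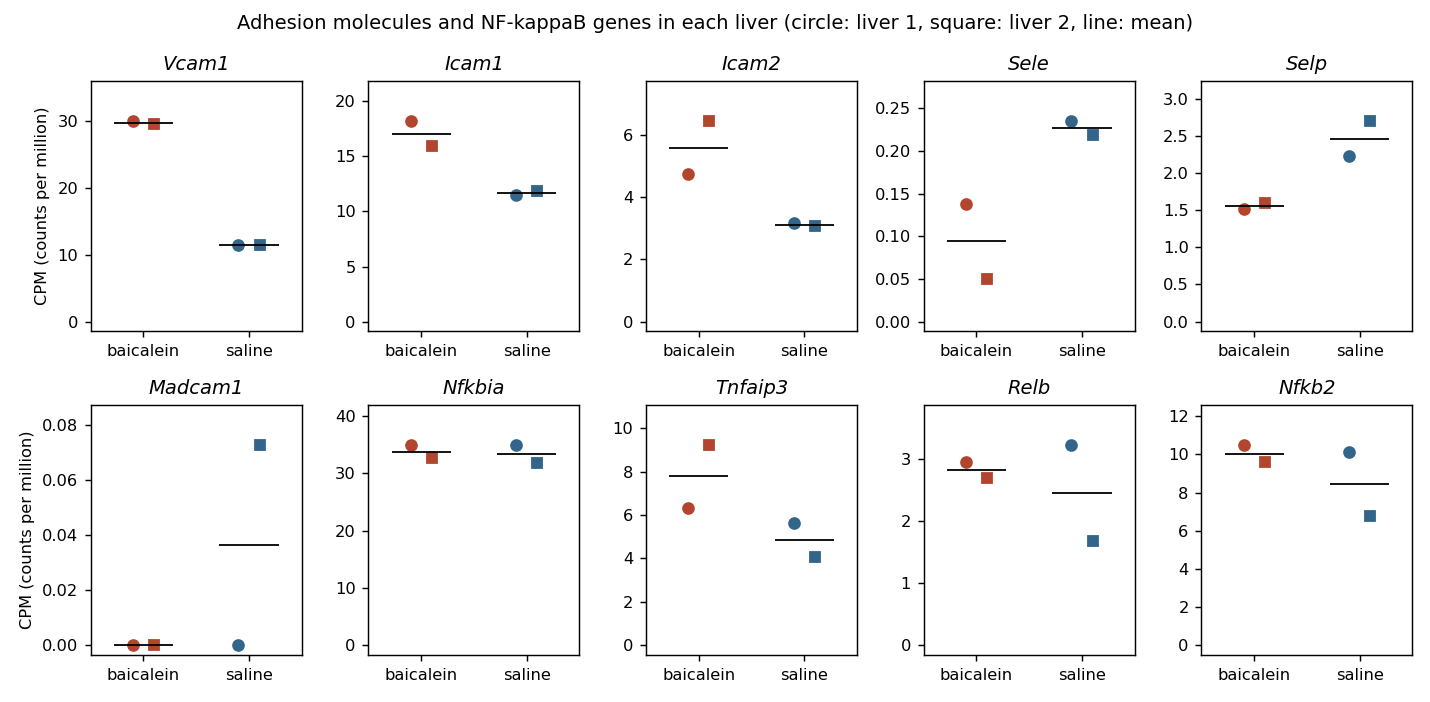
CPM of the 10 genes in each liver, baicalein left and saline right. Each panel has its own linear axis from 0, circles are liver 1, squares are liver 2, and lines are means of n = 2. Vcam1 separates the groups most widely (30.0 and 29.5 CPM with baicalein, against 11.5 and 11.5 CPM with saline), while the points of Nfkbia overlap near 33 CPM, and Sele and Madcam1 rest on 10 reads and 1 read in all.

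The selectins were scarce. Sele (ENSMUSG00000026582), the E-selectin gene that inflamed endothelium transcribes, had 2 and 1 reads in the baicalein livers, against 4 and 3 in the saline livers. The ratio of 3 reads to 7, scaled by normalised library size, was 0.381 with an exact 95% counting interval of 0.0636 to 1.67. A difference was thus not detectable at this depth. Selp (ENSMUSG00000026580) encodes P-selectin, which endothelium and platelets store ready-made. It had 1.51 and 1.6 CPM with baicalein, against 2.23 and 2.7 CPM with saline. Both baicalein livers lay below both saline livers, but the log2 fold change of -0.66 (SE 0.39, adjusted p = 0.301 by edgeR) did not pass. Both selectin genes lie on chromosome 1 in the same orientation, 57586 bases apart by the positions of the deposited table.

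Beside Selp stand the platelet markers, of which Ppbp, a platelet chemokine gene, fell (5 and 5 reads with baicalein, against 24 and 19 with saline, log2 fold change -2.22, SE 0.62, adjusted p = 0.0401 by edgeR) and 3 did not pass. Of these 3, Gp1ba had 22 and 12 reads with baicalein, against 7 and 8 with saline (log2 fold change 1.06, SE 0.70). The log2 fold change was 0.40 (SE 0.33) for Itga2b and -0.56 (SE 0.47) for Pf4. The 6 platelet markers summed to 7.36 and 5.04 CPM with baicalein, against 6.58 and 6.49 CPM with saline. Gp9 had no read in either baicalein liver. Per 100 CPM of the summed platelet markers Selp was at 20.6 and 31.7 with baicalein, against 33.9 and 41.6 with saline. Against the summed markers of sinusoidal endothelium, Kupffer cells, stellate cells and leukocytes, described below, it was also lower without overlap. The part of platelets in the Selp value was not tested. Madcam1 (ENSMUSG00000020310), the address molecule of gut vessels for alpha4 beta7 integrin, had no read in either baicalein liver, against 0 and 1 in the saline livers, so no fold is given.

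None of the 4 NF-kappaB genes was called by edgeR, DESeq2 or limma-voom in fits of all livers without a block, and at an unadjusted p below 0.05 edgeR gave 1, Tnfaip3. Nfkbia (ENSMUSG00000021025, chromosome 12), the inhibitor that is degraded on activation and then made anew, had 34.9 and 32.7 CPM in the baicalein livers, against 35.0 and 31.9 CPM in the saline livers. The groups overlapped, and the 95% interval of the fold ran from 0.858 to 1.19 (log2 fold change 0.02, SE 0.10, adjusted p = 0.944 by edgeR). Of the 10 genes it had the highest level per length, and its promoter holds GGAAATTCC as that of Icam1 does.

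Tnfaip3 (ENSMUSG00000019850, chromosome 10), which encodes the ubiquitin-editing enzyme A20, had 6.33 and 9.23 CPM with baicalein, against 5.64 and 4.08 CPM with saline. The groups did not overlap, but the livers within each group lay farther apart than the nearest livers of different groups. The log2 fold change of 0.68 (SE 0.27) did not pass (adjusted p = 0.136 by edgeR) and ran from 0.38 without baicalein 2 to 0.92 without saline 1.

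Relb and Nfkb2 encode RelB and p100, the precursor of the subunit with which RelB pairs in the alternative pathway. Relb had 2.96 and 2.69 CPM with baicalein, against 3.23 and 1.68 CPM with saline (log2 fold change 0.20, SE 0.40, adjusted p = 0.805 by edgeR). Nfkb2 had 10.5 and 9.58 CPM with baicalein, against 10.1 and 6.78 CPM with saline (log2 fold change 0.25, SE 0.22, adjusted p = 0.5 by edgeR). In both genes saline 2 was the low liver and the other 3 lay together. Without saline 2 the log2 fold change was -0.20 for Relb and -0.02 for Nfkb2. Nfkb2 overlaps Psd on the other strand (by the table's positions), and no source used here says whether counting used strand, so reads of the 2 genes may be mixed. Psd had 15 and 88 reads with baicalein, against 23 and 18 with saline, where Nfkb2 had 153 and 192 with baicalein, against 172 and 93 with saline.

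**Figure D2:**
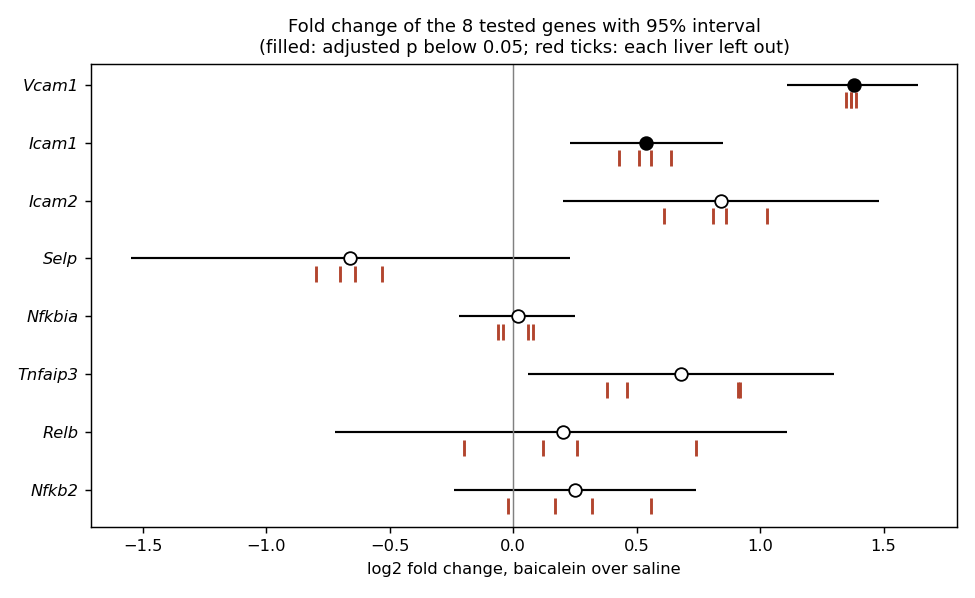
Log2 fold change (baicalein over saline) of the 8 tested genes from the edgeR fit with all livers, with 95% intervals not adjusted for the number of genes. Filled circles passed an adjusted p of 0.05 (Vcam1 at 1.38 and Icam1 at 0.54), and red ticks give the value with each liver left out. The ticks of Vcam1 bunch at 1.35 to 1.39, and those of Nfkbia, Relb and Nfkb2 fall on both sides of 0.

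Levels of different genes were compared per length, as the deposited FPKM (reads per gene length and library depth). Nfkbia stood far above the rest at 21.4 and 21.8 FPKM with baicalein, against 20.9 and 19.5 FPKM with saline. Icam1 came next, at 4.10 and 3.91 FPKM with baicalein, against 2.54 and 2.67 FPKM with saline. Vcam1 had 3.33 and 3.56 FPKM with baicalein, against 1.24 and 1.27 FPKM with saline.

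Vcam1 thus lay below Icam2 (1.6 and 1.58 FPKM) and Nfkb2 (2.12 and 1.45 FPKM) in the saline livers. In the baicalein livers Vcam1 lay above Nfkb2 (2.26 and 2.24 FPKM) and within the spread of Icam2 (2.45 and 3.62 FPKM). The ratio of Vcam1 to Icam1 FPKM was 0.812 and 0.912 in the baicalein livers, against 0.489 and 0.473 in the saline livers. In the lower part of the order, Tnfaip3 at 0.554 to 1.37, Relb at 0.424 to 0.801 and Selp at 0.338 to 0.600 FPKM overlapped over the 4 livers. They overlapped in the saline livers but not in the baicalein livers. There Tnfaip3 had 0.862 and 1.37, Relb 0.75 and 0.742, and Selp 0.338 and 0.387 FPKM. Sele was at 0.0181 to 0.0769 FPKM.

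Markers of cells that carry these molecules were higher as well. In bulk liver, more cells of a type and more RNA per cell cannot be told apart. Of the 8 markers of sinusoidal endothelium 6 were called, all higher, and the list summed to 563 and 560 CPM with baicalein, against 418 and 356 CPM with saline. All 6 Kupffer cell markers rose (666 and 574 CPM in sum with baicalein, against 371 and 321 CPM with saline). Of 6 stellate cell markers 4 rose and none fell, and of 5 leukocyte markers 3 rose and none fell. No marker of these lists was at 0 in any liver. The leukocyte sums were 89.7 and 83.1 CPM with baicalein, against 53.2 and 54.0 CPM with saline. None of 7 markers of larger vessels passed with edgeR (1 at an unadjusted p below 0.05, 1 called by DESeq2 and 0 by limma-voom), with sums of 26.2 and 55.7 CPM with baicalein, against 34 and 25.9 CPM with saline. The hepatocyte gene Alb rose too, while Tat and Serpina1c fell.

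Set against the sinusoidal sum of the same liver, Vcam1 was still higher: 5.33 and 5.28 CPM per 100 CPM of markers with baicalein, against 2.74 and 3.22 with saline. Against the Kupffer cell sum it was 4.50 and 5.15 with baicalein, against 3.09 and 3.57 with saline, and against the leukocyte sum 33.4 and 35.6 with baicalein, against 21.5 and 21.2 with saline. These groups did not overlap. Against the stellate sum they did (12.2 and 10.2 with baicalein, against 4.97 and 14.4 with saline). That sum holds Des, a muscle gene as well, at 6.26 and 101 CPM with baicalein, against 151 and 2.63 CPM with saline. A sum without Des was not formed, so the part of Des in the overlap was not tested. Of the other stellate markers, Lrat (log2 fold change 2.44) and Reln (1.71) lay above Vcam1. Colec11 (1.04), Hgf (0.67) and Pdgfrb (0.51) lay below it. Of the Kupffer cell markers, Marco (1.73) lay above Vcam1. Vsig4 (1.11), Cd5l (1.07), Adgre1 (1.03), Timd4 (0.99) and Clec4f (0.46) lay below it. Vcam1 was thus higher against the Kupffer cell sum but not against each of its markers.

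The groups of Icam1 and Icam2 overlapped against the sinusoidal sum. Per 100 CPM of these markers Icam1 was at 3.23 and 2.84 with baicalein, against 2.76 and 3.34 with saline, with the groups interleaved. Icam2 was at 0.844 and 1.15 with baicalein, against 0.760 and 0.861 with saline. Against the Kupffer cell, leukocyte and stellate sums Icam1 did not stay higher. It was at 2.72 and 2.77 per 100 CPM of Kupffer cell markers with baicalein, against 3.11 and 3.7 with saline, and at 20.2 and 19.2 per 100 CPM of leukocyte markers with baicalein, against 21.7 and 22 with saline. Both baicalein livers thus lay below both saline livers on these measures, the reverse of the order in CPM. Icam1 was higher with baicalein in CPM and these sums were higher by more, so the ratios show no fall of Icam1. Against the stellate sum Icam1 overlapped (7.41 and 5.52 with baicalein, against 5 and 14.9 with saline). Here too the stellate sum holds Des, whose part in the overlap was not tested. Icam2 overlapped against the Kupffer cell, leukocyte and stellate sums too. The platelet sum held few reads (107 and 101 with baicalein, against 112 and 89 with saline). Per 100 CPM of platelet markers Icam1 was higher, at 247 and 316 with baicalein, against 175 and 183 with saline. Icam2 was higher there too, at 64.5 and 128 with baicalein, against 48.2 and 47.2 with saline. Nfkbia, whose groups overlapped in CPM, was lower against the sinusoidal sum, at 6.21 and 5.85 with baicalein, against 8.37 and 8.98 with saline. With Nfkbia alike in CPM and the sum higher with baicalein, this ratio mirrors the sum and shows no change of Nfkbia. How far each cell type contributes to the member genes was not tested.

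**Figure D3:**
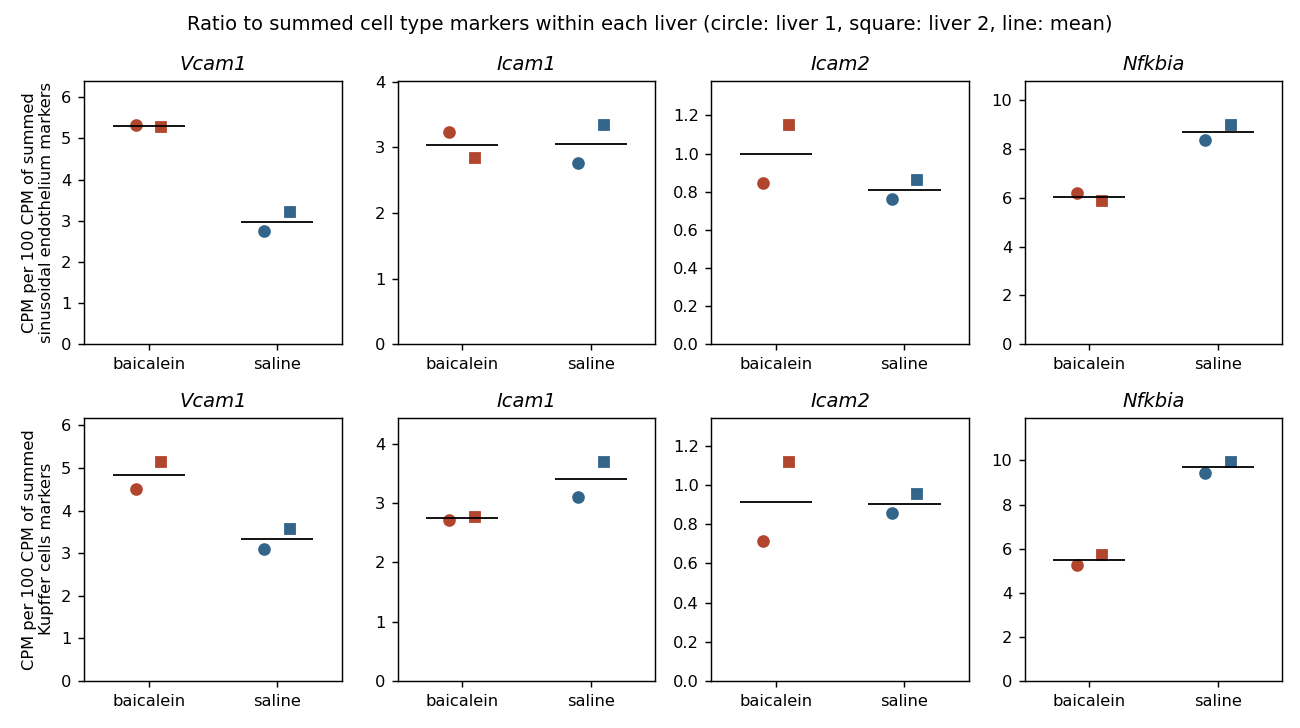
CPM of Vcam1, Icam1, Icam2 and Nfkbia per 100 CPM of summed markers in the same liver, for sinusoidal endothelium (upper row, 8 markers) and Kupffer cells (lower row, 6 markers). Axes are linear from 0, circles are liver 1, squares are liver 2 and lines are means of n = 2. Vcam1 keeps the baicalein livers above the saline livers in both rows. Icam1, itself higher with baicalein in CPM, overlaps in the upper row and is lower in the lower row (2.72 and 2.77 with baicalein, against 3.11 and 3.7 with saline). Nfkbia is lower with baicalein in both, its CPM being alike and the marker sums higher.

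Several receptors that leukocytes use on these molecules rose. Of 15 counter-receptor genes 14 were tested, of which 6 rose and none fell. The median over the tested genes of the list was 0.96 on the log2 scale. The leukocyte markers were higher with baicalein as well, with a median of 0.60. Whether the receptors rose beyond these markers was not tested. Of the receptors of VCAM-1, Itga9 (alpha9 integrin) rose, with 48.6 and 50.9 CPM with baicalein, against 25.9 and 23.2 CPM with saline (log2 fold change 1.02, SE 0.10, adjusted p = 0.000339). Itga4 was at 4.40 and 4.34 CPM with baicalein, against 2.59 and 1.6 CPM with saline (log2 fold change 1.05, SE 0.35), and did not pass (adjusted p = 0.0755). Their shared partner Itgb1, which most liver cells express, was at 169 and 183 CPM with baicalein, against 174 and 169 CPM with saline, with the groups interleaved.

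For ICAM-1, both chains of LFA-1 rose. Itgal had 38.8 and 34.4 CPM with baicalein, against 20.8 and 18.4 CPM with saline (log2 fold change 0.90, SE 0.12, adjusted p = 0.00171). Itgb2 had 20.9 and 21.0 CPM with baicalein, against 13.1 and 14 CPM with saline (log2 fold change 0.63, SE 0.12, adjusted p = 0.00964). Itgam, the alpha chain of Mac-1, had 18 and 31 reads with baicalein, against 13 and 6 with saline, and did not pass (adjusted p = 0.197). With 1 liver absent Itgb2 was called in the fit lacking saline 2 and in none of the others (adjusted p up to 0.0707). These adjusted p-values, and those that follow, are from the same edgeR fit of all genes.

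Some selectin ligands of the list rose, and others did not pass. Selplg, the gene of PSGL-1, the leukocyte ligand of P-selectin, had 7.36 and 6.34 CPM with baicalein, against 3.47 and 2.92 CPM with saline (log2 fold change 1.10, SE 0.25, adjusted p = 0.0201). Cd44, the hyaluronan receptor, had 30.0 and 39.3 CPM with baicalein, against 16.6 and 14.5 CPM with saline (log2 fold change 1.16, SE 0.15, adjusted p = 0.00183). Spn, encoding the leukocyte sialoglycoprotein CD43, had 4.81 and 3.89 CPM with baicalein, against 1.94 and 1.9 with saline CPM with saline (adjusted p = 0.0393, log2 fold change 1.18, SE 0.32). Glg1, the gene of an E-selectin ligand, was at 77.4 and 85.6 CPM with baicalein, against 82.9 and 72 CPM with saline, with overlapping groups (adjusted p = 0.717), and the P-selectin ligand gene Cd24a did not pass either (adjusted p = 0.623). Itga9, Itgal and Cd44 were called without any 1 liver. Selplg and Spn were called with no set of 3 (adjusted p up to 0.135 and 0.192), and with all 4 Spn was not called by DESeq2 (adjusted p = 0.0824) or limma-voom (adjusted p = 0.0731).

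Among 11 enzymes that build selectin ligands, 8 were tested and 2 rose. St3gal4, a sialyltransferase, had 156 and 165 CPM with baicalein, against 74.1 and 76.4 CPM with saline (log2 fold change 1.09, SE 0.09, adjusted p = 0.000156). B4galt1, a galactosyltransferase, had 89.7 and 86.1 CPM with baicalein, against 52.1 and 56.5 CPM with saline (log2 fold change 0.69, SE 0.09, adjusted p = 0.00174). Both act on glycans of many proteins, also in hepatocytes. Fut7, a fucosyltransferase of leukocytes that selectin ligands require, had 3 and 3 reads with baicalein, against 0 and 2 with saline.

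Of 18 other endothelial contact genes 15 were tested, and Lyve1, a hyaluronan receptor of sinusoidal endothelium, was the 1 that rose. It had 24 and 17.4 CPM with baicalein, against 9.11 and 12.3 CPM with saline (log2 fold change 0.95, SE 0.22, adjusted p = 0.0328), and with 1 liver absent it was called in 1 of 4 fits (adjusted p up to 0.145). With all livers limma-voom did not call it (adjusted p = 0.069). The median log2 fold change of the list was 0.51, and its 1 call stands beside 15.5% called over all tested genes. The scavenger receptor gene Stab1 (log2 fold change 0.28, SE 0.09, adjusted p = 0.0780) and the junction genes Pecam1 (0.57, SE 0.22, adjusted p = 0.197) and Cdh5 (0.41, SE 0.20, adjusted p = 0.261) did not pass. Icam4, which lies in the same gene family, and Glycam1 had no read in any liver.

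Upstream of the adhesion genes, the NF-kappaB machinery split. Of 18 other subunits, inhibitors and kinases, 2 rose and 4 fell, and the list's median was 0.05 (log2). Rela, the main activating subunit, had 44.5 and 41.3 CPM with baicalein, against 60.1 and 53.6 CPM with saline (log2 fold change -0.41, SE 0.10, adjusted p = 0.0254). Ikbkg, the scaffold NEMO of the IkappaB kinase, had 54.7 and 53.0 CPM with baicalein, against 97.6 and 99.6 CPM with saline (log2 fold change -0.87, SE 0.09, adjusted p = 0.000431). Tab2, an adaptor of the TAK1 kinase (log2 fold change -0.70, SE 0.09, adjusted p = 0.00155), and Bcl3, a nuclear IkappaB protein (-0.80, SE 0.15, adjusted p = 0.00910), fell too.

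The genes that rose were Ikbke and Nfkbiz. Ikbke, an IKK-related kinase also known for interferon signalling, had 40.0 and 32.8 CPM with baicalein, against 16.6 and 17.8 CPM with saline (log2 fold change 1.08, SE 0.13, adjusted p = 0.000943). Nfkbiz, a nuclear coactivator of NF-kappaB, had 10.7 and 11.5 CPM with baicalein, against 6.94 and 6.56 CPM with saline (log2 fold change 0.72, SE 0.17, adjusted p = 0.0221). Rela and Nfkbiz were called with all 4 livers and with no set of 3 (adjusted p up to 0.165 and 0.143). With all 4, limma-voom did not call Rela (adjusted p = 0.0646) and DESeq2 did not call Nfkbiz (adjusted p = 0.0663). Bcl3 lost its call without saline 1 or baicalein 1 (adjusted p up to 0.0747). The FPKM ratio of Nfkbia to Rela was 1.5 and 1.51 with baicalein, against 1.11 and 1.14 with saline.

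Of 17 partners of A20 and other ubiquitin editors, 16 were tested, 1 rose and 1 fell (list median 0.05, log2). These calls stand beside 15.5% called over all tested genes. Itch, a ubiquitin ligase that works with A20, rose (70.1 and 73.7 CPM with baicalein, against 51.9 and 51.2 CPM with saline, log2 fold change 0.48, SE 0.09, adjusted p = 0.00738), but was not called without saline 2 (adjusted p = 0.0704). Rnf11, another member of the A20 complex, fell (106 and 107 CPM with baicalein, against 162 and 166 CPM with saline, log2 fold change -0.62, SE 0.09, adjusted p = 0.00273). Of the negative regulators of the alternative pathway, Traf3 (log2 fold change 0.12, SE 0.14), Traf2 (-0.31, SE 0.16) and Birc2 (0.24, SE 0.14) did not pass.

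Of the cytokines that induce adhesion molecules, Tnf and Lta had too few reads to be tested, and the interleukin 1 genes did not pass. Tnf had 8 and 10 reads in the baicalein livers, against 8 and 4 in the saline livers. Lta had 1 and 0 reads with baicalein, against 0 and 0 with saline. Il1b, at 2.82 and 2.15 CPM with baicalein, against 3.70 and 2.48 CPM with saline, overlapped between groups (adjusted p = 0.62), as did Il1a, at 2.06 and 1.6 CPM with baicalein, against 1.88 and 1.97 CPM with saline (adjusted p = 0.929). Of the 21 inducing ligands and receptors 15 were tested, 1 rose and 1 fell, and the list's median was 0.11 (log2). Over all tested genes 15.5% were called. Tnfrsf12a, the receptor of TWEAK, fell (3.16 and 4.04 CPM with baicalein, against 9.99 and 8.02 CPM with saline, log2 fold change -1.32, SE 0.24, adjusted p = 0.00723). Without saline 1 or baicalein 1 its call was lost (adjusted p up to 0.0693), at log2 fold changes of -1.16 and -1.17. Tlr2, a receptor of bacterial lipoproteins, rose (7.98 and 11.6 CPM with baicalein, against 5.76 and 5.03 CPM with saline, log2 fold change 0.86, SE 0.23, adjusted p = 0.0389), though no fit lacking 1 liver called it (adjusted p up to 0.283), nor did DESeq2 (adjusted p = 0.0887) or limma-voom (adjusted p = 0.106) with all 4.

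Of 21 other genes that respond to NF-kappaB, 15 were tested, 4 rose and none fell, and the list's median was 0.60 (log2). Irf1, an interferon-induced transcription factor, had 56.7 and 55.8 CPM with baicalein, against 34.6 and 33.9 CPM with saline (log2 fold change 0.72, SE 0.09, adjusted p = 0.00103). Cxcl1, a neutrophil chemokine, had 14.9 and 12.5 CPM with baicalein, against 8.11 and 6.78 CPM with saline (log2 fold change 0.87, SE 0.17, adjusted p = 0.0110). Cd83, a maturation marker of dendritic and B cells (log2 fold change 1.25, SE 0.30, adjusted p = 0.0234), and Tifa, a TRAF6 adaptor (0.61, SE 0.14, adjusted p = 0.0210), rose too. Il6 had no read in either baicalein liver, against 3 and 1 in the saline livers, and Cxcl2 had 0 and 3 reads with baicalein, against 21 and 5 with saline. Cxcl1 was not called without saline 2 or baicalein 1 (adjusted p up to 0.113). With 1 liver absent Tifa was called in the fit lacking saline 2 (adjusted p = 0.0145) and in none of the others (up to 0.138), and Cd83 was called in none (up to 0.157). With all 4 livers limma-voom called neither Tifa (adjusted p = 0.0527) nor Cd83 (adjusted p = 0.065). Over all 7 lists 23 of 101 tested genes were called, 17 higher and 6 lower, or 22.8%, beside 15.5% of all tested genes. Since the lists were chosen with earlier results of these data known, these shares are a description.

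**Figure D4:**
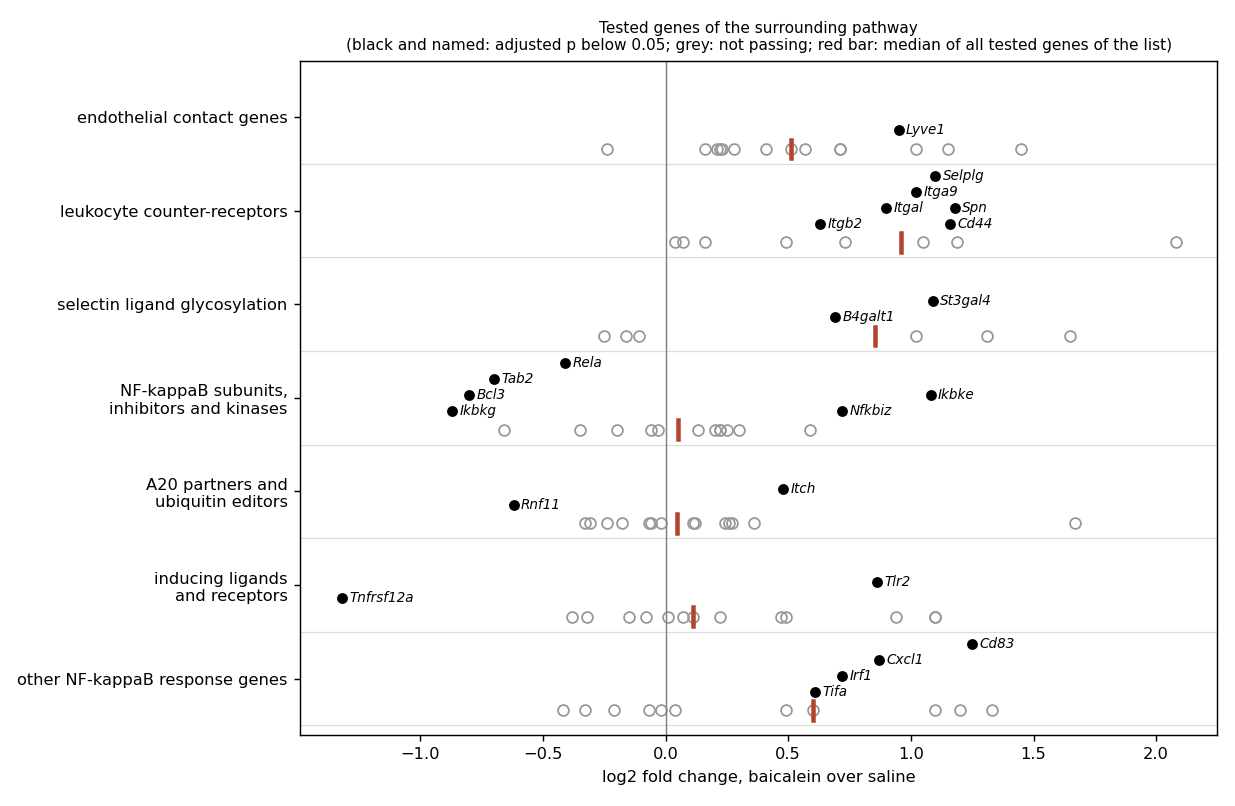
Log2 fold change (baicalein over saline) of the 101 tested genes of 7 lists around the adhesion molecules. Black, named points passed an adjusted p of 0.05, grey circles did not, and red bars are the median of all tested genes of a list. Counter-receptors lie to the right of 0 (median 0.96, 6 called higher), while called NF-kappaB subunits and kinases lie on both sides (2 higher, 4 lower).

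For 5 of the genes, the 3 genes most like them over the 4 livers were sought among 9282 tested genes with a mean of at least 5 CPM, by the root mean square distance of log2 CPM less its mean. With 4 livers this is a description of shape only. Nearest to Vcam1 were Dqx1, an RNA helicase-like gene (distance 0.035), Pip4k2a, a phosphoinositide kinase gene (0.044), and Dcn, the matrix proteoglycan decorin (0.047). Dcn had 169 and 172 CPM with baicalein, against 70.1 and 64.5 CPM with saline. Nearest to Icam1 were Cdip1 (0.009), Slc38a3 (0.015) and Edem1 (0.019), and nearest to Icam2 Atp11a (0.021), Ttc28 (0.043) and Tor4a (0.048). Nearest to Nfkbia were Tmem51 (0.007), Nxt1 (0.007) and Pfdn2 (0.008), and nearest to Tnfaip3 Kctd10 (0.030), Ggta1 (0.039) and Plekhg1 (0.043). No other endothelial contact gene was among these 15.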

How the data were processed

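RNA was sequenced from 4 livers, 2 per group. Per the labels' protocols, a SMARTer kit turned total RNA into libraries. The submitters' processing notes name mm10. The sources used here do not name the aligner or counter. The authors deposited 1 table with whole-number read counts and FPKM per gene and liver, and columns were tied to livers by sample title. No source says on which build the table's gene positions lie. Of 21851 gene IDs shared with GENCODE M21 (mm10), 514 had the same start and end, and none of the 10 genes did. The deposited counts and FPKM part by over 1% for 3 genes, none of them described here.

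Genes were filtered with filterByExpr (minimum count 10), which left 12657 of 21959, and scaled by TMM. The test was edgeR's two-sided quasi-likelihood test (version 4.0.16, R 4.3.3, robust), Benjamini-Hochberg adjusted over these genes and called below 0.05. Replicates had a common biological coefficient of variation of 0.289. An exact permutation test of 2 against 2 livers cannot pass that threshold, so p-values rest on spread shared between genes. The fit was tested on simulated data. Counting intervals and floors cover counting error only. The 10 genes, the gene lists and the naming rule (every member, every list gene past the threshold and the 2 of smallest p in each list) were chosen with earlier results of these data known, and genes outside the rule are named for their role. Alternatives used limma 3.58.1 and DESeq2 1.42.0. Promoter sequences are from RefSeq on GRCm38.p6.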

Additional observations from a re-analysis of the deposited data

How the results depend on the processing

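The count of called genes was 1968 (968 higher, 1000 lower). It was 1056 to 1328 with 1 liver left out (521 to 665 higher, 535 to 663 lower), and limma-voom called 632 higher. Fits without a liver have fewer degrees of freedom. Of the member genes 2 were called, and 1 (Vcam1) with DESeq2, with limma-voom and with each liver left out in turn, a range of 1 to 1. Of the pathway genes 23 were called, and 13 to 15 with a liver left out (9 to 11 higher, 3 to 5 lower). The signs of Nfkbia (-0.06 to 0.08), Relb (-0.20 to 0.74) and Nfkb2 (-0.02 to 0.56) turned with a liver left out. Median-of-ratios factors, no filter, a mean CPM of at least 1 and FPKM-implied counts left the member calls as they were.

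The labels do not say that a number links livers across groups, and deviations of same-numbered livers from their group means ran against each other (correlation over genes -0.77). With the replicate number as a block 1132 genes (531 higher, 601 lower), 1 member and 15 pathway genes (10 higher) were called. Pairing baicalein 2 with saline 1 and baicalein 1 with saline 2, chosen after seeing the data, gave 3498 genes (1809 higher, 1689 lower), 4 members and 41 pathway genes (31 higher, 10 lower).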

Other observations

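Several genes of the lists stood highest in baicalein 2 with saline 1 next, the livers with muscle transcripts. The muscle sum had the other order, at 1370 CPM in baicalein 2 against 4450 CPM in saline 1, and a link was not tested. None of the genes named here, chosen after their values were seen, passed the test. Cd24a, a mucin-like P-selectin ligand, had 4.33 and 96.8 CPM in the baicalein livers, against 17.2 and 6.71 CPM in the saline livers. Cd34, a sialomucin of endothelium outside the sinusoids, had 2.20 and 15.8 CPM with baicalein, against 8.76 and 2.26 CPM with saline. St3gal6, a sialyltransferase, had 4.81 and 22.8 CPM with baicalein, against 8.35 and 2.77 CPM with saline. Cx3cl1, the membrane-bound chemokine fractalkine, had 14 and 114 reads with baicalein, against 23 and 15 with saline. In CPM it had 0.963 and 5.69 with baicalein, against 1.35 and 1.09 with saline, so that baicalein 2 alone stood apart.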
